A study of Homo sapiens with 6 samples.

Results

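BT474-Var4 cells, which carried the short variant 4 of the long noncoding RNA NR2F1-AS1, were compared directly with BT474-Var1 cells, which carried the long variant 1, in 4 of the 6 arrays of the series, 2 for each population. Both populations came from BT474, an estrogen receptor-positive breast cancer cell line with HER2 amplification, by stable transfection of a pcDNA3.1 plasmid. The other 2 arrays held Control BT474 cells with an empty pcDNA3.1 plasmid (MOCK) and are given here only to show on which side of them the populations lay. By the methods, variant 4 was carried by a plasmid with an eGFP tag sequence and variant 1 by a hygromycin plasmid. Which of these plasmids the Control cells carried empty is not given, so Control may not match both populations. Few cells survived the antibiotic selection from which each population grew. An effect of the variant, of its plasmid and of the surviving colonies therefore cannot be told apart. Nothing says that the arrays of a population came from separate cultures, so p-values measure only the spread between these arrays, which may be technical. On the 1 slide that held every array, BT474-Var1 occupied the second column and the remaining 4 arrays the first, so slide column and population cannot be told apart either.

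NR2F1-AS1 is transcribed from the opposite strand beside NR2F1, the gene of a nuclear receptor linked to dormancy of disseminated tumor cells. It is spliced and started in several ways, so a probe can read some of its variants and not others. A cell under low oxygen or with stabilised HIF, the hypoxia-inducible factor, raises genes of glucose uptake, glycolysis, vessel growth and acid control. A cell under protein stress raises chaperones, through heat shock factor for those of the cytosol and through the unfolded protein response for those of the endoplasmic reticulum.

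The probes that read the transfected transcript carry the check of the labels, so their sequences are shown, written 5′ to 3′ as printed on the array. The first lies farthest upstream of the 4 (chr5:92889467-92889526, hg19, minus strand). The second is annotated as variant 4 (chr5:92877924-92877983), and the last 2 are annotated as variant 1 (chr5:92746995-92747054 and chr5:92745544-92745603).
A_22_P00006111: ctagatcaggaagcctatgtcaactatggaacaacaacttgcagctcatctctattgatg
A_24_P51080: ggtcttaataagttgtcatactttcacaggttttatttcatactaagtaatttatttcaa
A_22_P00006112: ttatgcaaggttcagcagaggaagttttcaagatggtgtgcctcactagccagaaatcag
A_19_P00320140: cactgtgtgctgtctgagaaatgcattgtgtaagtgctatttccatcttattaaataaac

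Levels below are log2 intensities relative to the array's 75th percentile, a difference is BT474-Var4 minus BT474-Var1 on the log2 scale with its standard error (SE), and n is 2 arrays for each population. The variant 4 probe A_24_P51080 read 1.67 and 1.5 in BT474-Var4 and was not well above background on either BT474-Var1 array, where it read -6.05 and -6.35. Its signal was higher in BT474-Var4 by at least 48.8-fold (limma, adjusted p = 0.00262). The variant 1 probes had the opposite pattern. A_22_P00006112 read -0.19 and -0.22 in BT474-Var1 and was not well above background on either BT474-Var4 array, higher in BT474-Var1 cells by at least 12.7-fold (adjusted p = 0.00122). A_19_P00320140 was higher in BT474-Var1 by at least 10.8-fold (adjusted p = 8.5e-04). Each population thus read high on the probes described as the variant it was labelled with, and low on those of the other. The annotation pairs A_24_P51080 with 3 transcripts and each variant 1 probe with 4, so none of them reads 1 variant alone.

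The probe farthest upstream, A_22_P00006111, is annotated as variant 6 and was well above background in both populations. It read 3.01 and 3.02 in BT474-Var4 and -1.69 and -1.52 in BT474-Var1, a difference of 4.62 (SE 0.53, adjusted p = 0.00423). NR2F1, the neighbouring protein-coding gene on the plus strand (A_33_P3403117, chr5:92929717-92929776), read -2.58 and -2.65 in BT474-Var4 and was not well above background on either BT474-Var1 array, higher in BT474-Var4 cells by at least 2.65-fold (adjusted p = 0.00248). Its Control arrays averaged -1.75, above both populations.

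**Figure D1:**
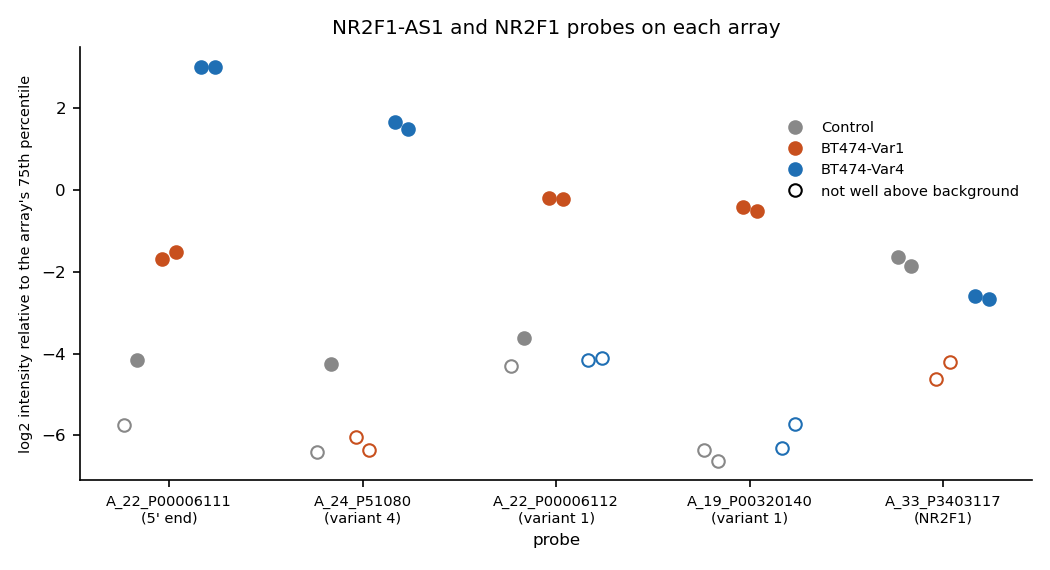
Log2 intensity relative to the array's 75th percentile (vertical axis) of the 4 NR2F1-AS1 probes and the NR2F1 probe, 1 point per array; open points were not well above background. The variant 4 probe is high only in BT474-Var4 and the variant 1 probes only in BT474-Var1. The axis label for a 5′ end marks the probe that lies farthest upstream of the 4.

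The cells read as luminal mammary epithelium on all 4 arrays. ERBB2 averaged 8.59 in BT474-Var4 and 8.83 in BT474-Var1 cells on its brighter probe, KRT19 9.81 and 10.5, and EPCAM 6.5 and 5.85. Of 25 markers of leukocytes, fibroblasts and endothelium, 12 were tested, 4 of them passed an adjusted p of 0.05 in favour of BT474-Var4 cells and 0 in favour of BT474-Var1 cells in limma, against 22.6% and 22.8% of all genes tested. DCN, which encodes the matrix proteoglycan decorin, was the marker that crossed the 2-fold line, higher in BT474-Var4 cells by at least 5.55-fold on 1 probe while its other probe was not well above background on any of the 6 arrays. COL3A1, KRT5 and ACTA2 were not well above background on any array. Others were, on all 4 arrays: COL1A1 averaged 2.18 in BT474-Var4 and 1.48 in BT474-Var1 cells. VWF averaged 0.94 and 0.19 on its brightest probe. CD14 and CDH5 were also detected on all 4, as were PTPRC, PDGFRB and KRT14 on at least 1 probe each. Whether other cells contributed to any difference was not tested, and in bulk RNA fewer cells of a type and less RNA per cell cannot be told apart.

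Of the 58201 probes, 30263 were tested, and 2150 of these, 7.1%, passed both lines of a call as used below, a difference of at least 2-fold and an adjusted p under 0.05. They held 1994 gene names. BT474-Var4 cells were higher on 696 probes (2.3%) and BT474-Var1 cells on 1454 (4.8%). With 1 probe per gene, 551 of 23442 genes were called higher in BT474-Var4 (2.35%) and 1138 in BT474-Var1 cells (4.85%). At an adjusted p under 0.05 alone, 22.6% of genes were higher in BT474-Var4 and 22.8% in BT474-Var1 cells. These shares stand behind each list count below. The balance between the directions depended on the processing: BT474-Var4 cells were higher on 32.4% of called probes, but on 25.9% when the percentile was taken over probes detected on all 6 arrays, 48.1% after quantile normalization and 52.3% after normexp background correction. Of the probes called higher in BT474-Var1 cells, 573 were not well above background on either BT474-Var4 array, against 95 in the reverse direction, and the BT474-Var4 arrays had 53.1% and 47.6% of probes well above background while the BT474-Var1 arrays had 53.1% and 56.3%. The part of this gap in the counts was not tested. The Control mean lay between the populations for 550 of the 696 and for 1185 of the 1454 probes. Over all tested probes it did so for 13038 of 30263. A call requires a gap between the populations, which makes a Control mean between them more likely, so nothing is read from these counts.

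**Figure D2:**
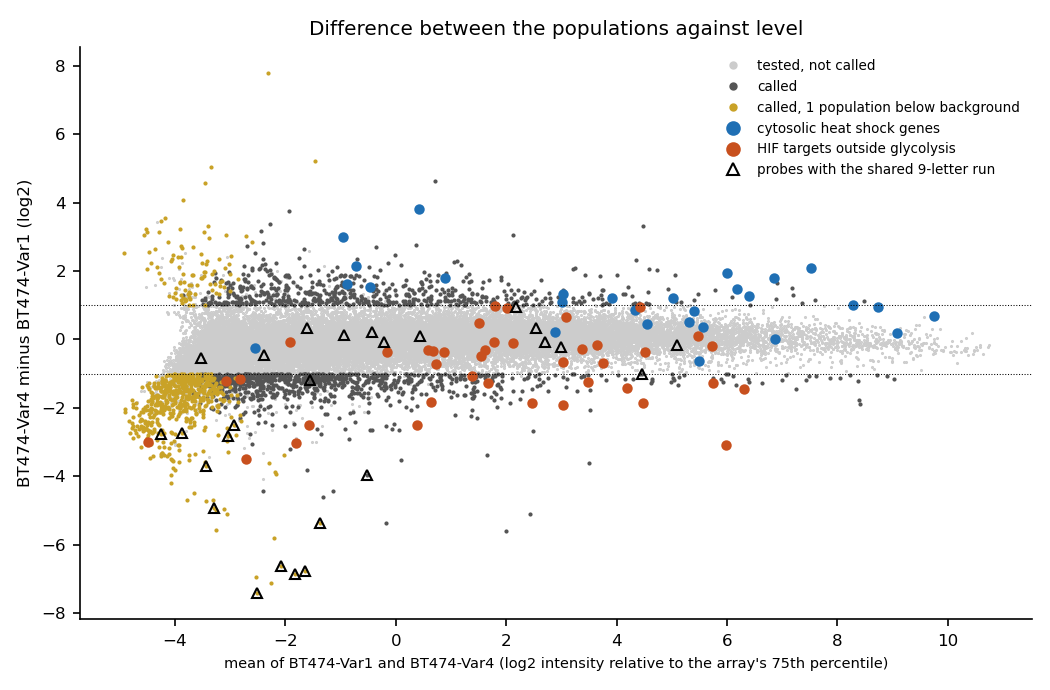
Difference BT474-Var4 minus BT474-Var1 (log2, vertical axis) against the mean level of both populations (log2 intensity relative to the array's 75th percentile) for the 30263 tested probes. Heat shock genes lie mostly above 0, HIF targets mostly below, and the steepest falls at low levels include probes that share the 9-letter run described in the text.

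Chaperones of the cytosol were the list that leaned most to BT474-Var4 cells. Of 28 heat shock genes tested, 25 were higher in BT474-Var4 and 1 in BT474-Var1 cells at an adjusted p under 0.05. Over all genes tested it was 22.6% and 22.8%. Of the list 15 were called, each time higher in BT474-Var4 cells, where 2.35% of all genes were. The median difference was 1.15, against -0.03 over all genes tested. Over all 46 probes of these genes, 37 were higher in BT474-Var4 and 3 in BT474-Var1 cells. The list's median was -0.57 for BT474-Var1 minus Control and 0.41 for BT474-Var4 minus Control, so the populations lay on opposite sides of the Control arrays that both share.

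HSPA6, a member of the HSP70 family with little expression in unstressed cells, read 2.36 and 2.27 in BT474-Var4, -1.48 and -1.49 in BT474-Var1 and 0.94 and 0.72 on the Control arrays. The populations did not overlap, and the difference was 3.8 (SE 0.09, adjusted p = 5.3e-04). HSPA1A, the main inducible HSP70, read 8.56 and 8.57 against 6.48 and 6.5, a difference of 2.07 (SE 0.05, adjusted p = 5.1e-04). HSPA1B is a near-identical copy, so the probes of this pair may read each other's RNA; it differed by 1.94. The small heat shock proteins moved with them. CRYAB, the alpha-B crystallin, read 0.56 and 0.52 in BT474-Var4, -2.71 and -2.22 in BT474-Var1 and -1.98 and -1.80 on the Control arrays, a difference of 3.0 (SE 0.18, adjusted p = 0.00121).

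The partners of these chaperones were higher as well. HSPH1, the exchange factor of HSP70, differed by 1.81 (SE 0.08), BAG3, which hands HSP70 clients to autophagy, by 1.78 (SE 0.07), and DNAJB1, an HSP40 that loads them, by 1.21 (SE 0.05). The constitutive HSPA8 showed a one-sided pattern: it read 7.02 and 7.03 in BT474-Var4 and 6.97 and 6.89 on the Control arrays, but 5.74 and 5.78 in BT474-Var1. HSP90AB1 differed by 1.47 (adjusted p = 8.5e-04) and HSP90AA1 by 0.68 (adjusted p = 0.00164) on its brightest probe and by 1.12 and 1.64 on the others, while the mitochondrial chaperonins HSPD1 and HSPE1 differed by 0.95 and 0.99. BAG1, a cochaperone that also binds BCL2, went the other way at -0.63 (SE 0.05, adjusted p = 0.00209). The RNA of HSF1, the factor that drives these genes, differed by 0.03 (adjusted p = 0.70).

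**Figure D3:**
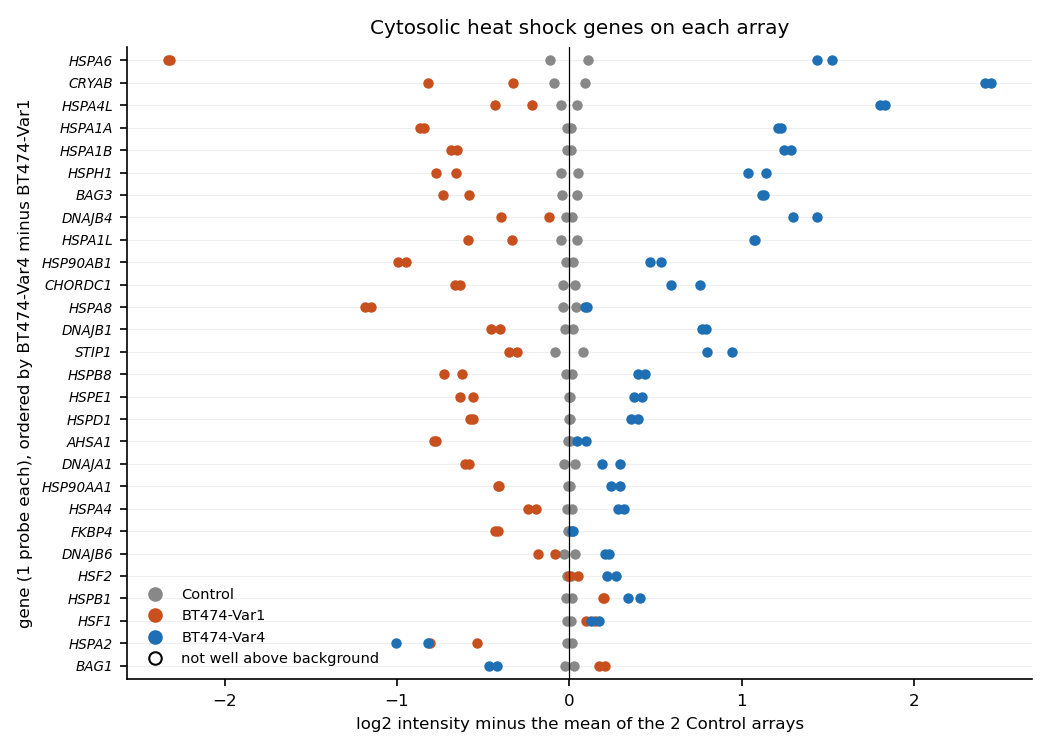
Log2 intensity minus the mean of the 2 Control arrays (horizontal axis) for the 28 heat shock genes, 1 point per array and 1 probe per gene. Most genes have their BT474-Var4 arrays to the right of Control and their BT474-Var1 arrays to the left, with HSPA6 and CRYAB farthest apart.

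Promoters of genes that moved together are shown for the letters they hold, taken from RefSeq (GRCh38.p14) as 250 bases before to 50 after the start. The heat shock element is made of inverted GAA units, and the search on both strands was for GAA, TTC and GAA, or for TTC, GAA and TTC, with any 2 letters between neighbouring units. This search was added after the heat shock values were seen. The element was found in 5 of the 25 heat shock genes with a promoter in the table and in 133 of 27305 promoters (0.487%). In the genes called higher in BT474-Var4 cells it was 6 of 340 and in those called higher in BT474-Var1 cells 0 of 440. Among all genes tested it was 47 of 12691 (0.37%). The 340 include called heat shock genes, so the 6 are not separate from the 5. These 60-base stretches, all before the start site, show it in capitals for HSPA6 (chr1:161524442-161524501, plus strand), HSPA8 (chr11:123062156-123062215, minus strand) and CHORDC1 (chr11:90223074-90223133, minus strand), a cochaperone of HSP90 with a difference of 1.32.
HSPA6: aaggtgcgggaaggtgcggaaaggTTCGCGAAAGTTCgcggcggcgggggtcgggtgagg
HSPA8: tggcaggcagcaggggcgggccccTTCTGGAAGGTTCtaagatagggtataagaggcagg
CHORDC1: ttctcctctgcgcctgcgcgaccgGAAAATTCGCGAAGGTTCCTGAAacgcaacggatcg

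Genes of the unfolded protein response and of amino acid stress were higher in BT474-Var4 cells by smaller steps. Over all genes tested, 22.6% were higher in BT474-Var4 and 22.8% in BT474-Var1 cells at an adjusted p under 0.05, with 2.35% and 4.85% called. Of the 52 tested here it was 36 and 6, with 5 and 2 called and a median difference of 0.37. Among the 19 chaperones and folding enzymes of the endoplasmic reticulum it was 14 and 1, with a median of 0.56. HSPA5 (BiP), the main chaperone there, read 4.02 and 3.92 in BT474-Var4, 2.86 and 2.84 in BT474-Var1 and 2.98 and 2.96 on the Control arrays, a difference of 1.12 (SE 0.06, adjusted p = 9.6e-04). DNAJB11, its cofactor, differed by 1.07 (SE 0.06). SLC7A11, the cystine importer of the ATF4 arm, differed by 1.51 (SE 0.08, adjusted p = 9.5e-04). XBP1, a factor of the same response that is also an estrogen target, was lower in BT474-Var4 cells, at 7.70 and 7.70 against 8.62 and 8.61. Metallothioneins, which bind zinc and copper, had 8 of 10 genes higher in BT474-Var4 and 0 in BT474-Var1 cells in limma, a median of 0.69 and 1 call, MT1F at 1.68 (SE 0.08); their probes may read near-identical family members.

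HIF targets leaned the other way. Of 40 targets outside glycolysis that were tested, 28 passed in favour of BT474-Var1 and 5 of BT474-Var4 cells at an adjusted p under 0.05. Over all genes it was 22.8% and 22.6%. Of the list 17 were called, each time higher in BT474-Var1 cells, where 4.85% of all genes were. The median difference was -0.68, or -0.34 after normexp correction and -0.42 over the members well above background on all 4 arrays. For BT474-Var1 minus Control the list's median was 0.91 and for BT474-Var4 minus Control 0.06, so here the BT474-Var4 arrays lay close to Control.

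NDRG1, a stress protein that HIF raises, read 7.51 and 7.53 in BT474-Var1 and 4.42 and 4.46 in BT474-Var4, beside 4.38 and 4.40 in Control. The difference was -3.08 (SE 0.05, adjusted p = 3.4e-04). The vessel growth factor VEGFA had the same shape, at 4.02 and 3.93 in BT474-Var1 cells and 2.06 and 2.08 in BT474-Var4 cells, a difference of -1.90 (SE 0.06, adjusted p = 8.1e-04). BNIP3, which marks mitochondria for removal, differed by -1.85 (SE 0.07), EGLN3, an oxygen sensor that marks HIF for decay, by -1.83 (SE 0.12), and ANKRD37 by -1.84 (SE 0.06).

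BHLHE40, a transcriptional repressor also called DEC1, read -0.43 and -0.24 in BT474-Var1 and -2.73 and -2.92 in BT474-Var4, a difference of -2.49 (SE 0.10, adjusted p = 8.5e-04). Its relative BHLHE41 (DEC2) differed by -0.32 (SE 0.13) and did not pass the test (adjusted p = 0.106), although it did after normexp correction (adjusted p = 0.0218) and with a trended, robust variance (adjusted p = 0.0223). ANGPTL4, a secreted inhibitor of lipoprotein lipase, differed by -3.04 (SE 0.33, adjusted p = 0.00362), with 1 BT474-Var4 array well above background. CA9, a carbonic anhydrase of the cell surface used as a mark of hypoxia, was higher in BT474-Var1 by at least 1.89-fold (adjusted p = 0.0175), but the adjusted p was 0.077, 0.054 and 0.058 without the BT474-Var4 A, BT474-Var4 B or BT474-Var1 A array. PPFIA4 (liprin alpha 4) was higher in BT474-Var1 by at least 7.63-fold (adjusted p = 0.003) on 1 probe, while its dimmer probe differed by -0.02 (adjusted p = 0.965).

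The list did not move as 1 block. ANG, which encodes the ribonuclease angiogenin, read 1.74 and 1.51 in BT474-Var1, 0.96 and 0.92 in Control and -0.94 and -0.80 in BT474-Var4 cells, so that the larger step was the one below Control. Some members were higher in BT474-Var4 cells: JMJD6 by 0.99 (SE 0.07), the collagen hydroxylase P4HA2 by 0.94 (SE 0.05), the carbonic anhydrase CA12 by 0.91 (SE 0.06) and EPAS1, the gene of HIF2 alpha, by 0.65 (SE 0.05). HIF1A RNA differed by -0.16 and did not pass the test (adjusted p = 0.0548).

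**Figure D4:**
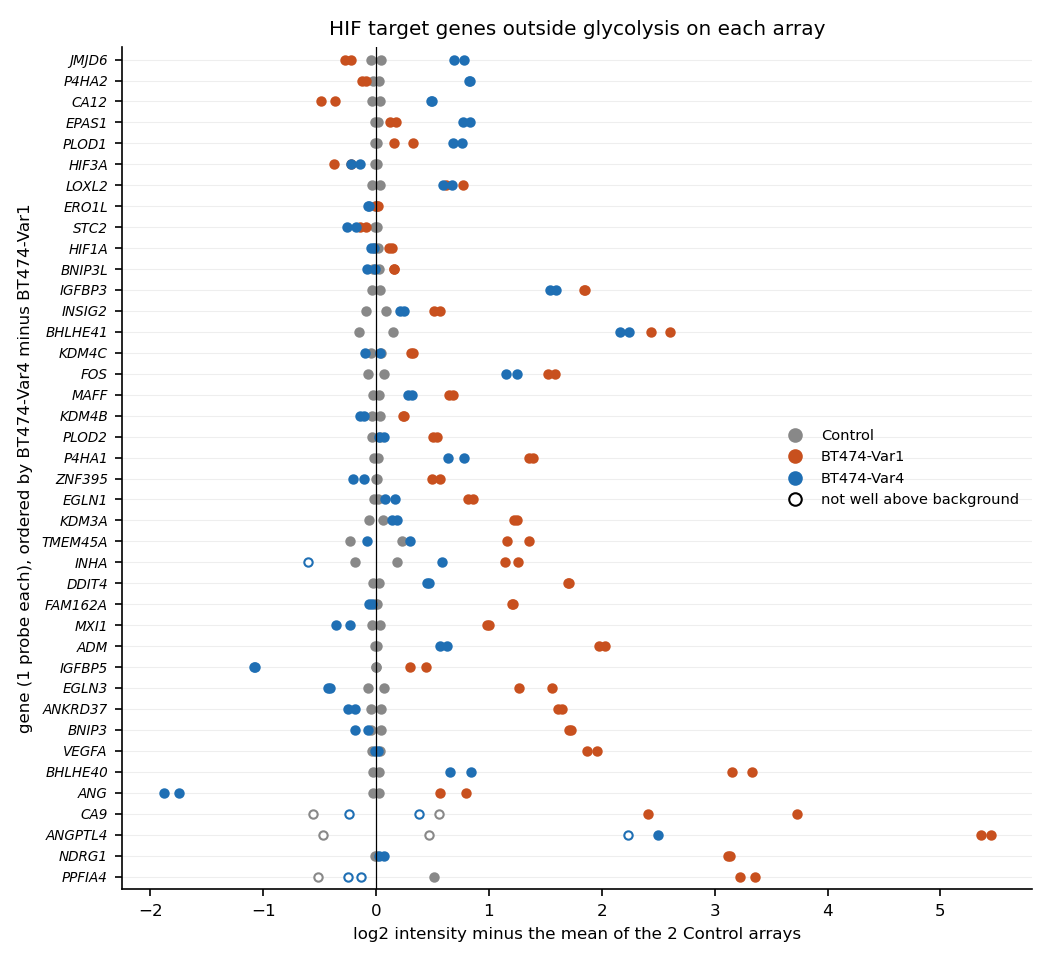
Log2 intensity minus the mean of the 2 Control arrays (horizontal axis) for the 40 HIF targets outside glycolysis, 1 point per array and 1 probe per gene; open points were not well above background. Most genes have the BT474-Var1 arrays to the right while many BT474-Var4 arrays stay near Control.

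Glycolysis followed the HIF targets. Of 33 genes tested, 24 passed in favour of BT474-Var1 cells and 3 in favour of BT474-Var4 cells at an adjusted p under 0.05. Over all genes these shares were 22.8% and 22.6%. By limma 10 and 0 were called, beside 4.85% and 2.35% of all genes, and the median was -0.56. Among the 10 upper enzymes 8 and 0 passed, among the 6 lower enzymes 6 and 0, and among the 7 genes of the pyruvate and lactate branch 3 and 2. PFKFB4 and PFKFB3, which make the activator of phosphofructokinase, differed by -2.07 (SE 0.11) and -1.56 (SE 0.05). HK2, which traps glucose, read 5.20 and 5.24 in BT474-Var1 and 4.03 and 4.08 in BT474-Var4, next to 4.03 and 4.09 in Control. PDK1, which keeps pyruvate out of mitochondria, differed by -1.77 (SE 0.06) and LDHA, which turns it to lactate, by -1.05 (SE 0.07). PDK4 and PDK2 were higher in BT474-Var4 cells, by 0.59 (SE 0.13) and 0.50 (SE 0.07).

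The subunits of the respiratory chain had small differences in favour of BT474-Var4 cells. Of 76 tested, 35 were higher in BT474-Var4 and 6 in BT474-Var1 cells at an adjusted p under 0.05, beside 22.6% and 22.8% of all genes. There were 0 calls in either direction in limma, and the median was 0.18, or 0.12 after quantile normalization. SDHB of complex II read 4.83 and 4.80 in BT474-Var4 and 4.23 and 4.11 in BT474-Var1 cells, a difference of 0.64 (SE 0.06, adjusted p = 0.00286), and its Control mean of 4.64 lay between them.

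The core of the hypoxia response element, ACGTG, was searched on both strands of the same promoters. It was found in 18 of 34 promoters of HIF targets outside glycolysis (52.9%) and 12 of 31 of glycolysis genes (38.7%), lists that are made of known targets, and in 5900 of all 27305 promoters (21.6%). Among the genes called higher in BT474-Var1 cells it was in 114 of 440 (25.9%), among those called higher in BT474-Var4 cells in 67 of 340 (19.7%), and among all genes tested in 25.8%. So the letters marked the lists and not the called genes as a whole. They are in capitals, as ACGTG or its reverse complement CACGT, in stretches before the start site of ANKRD37 (chr4:185396670-185396729, plus strand), BNIP3 (chr10:131982026-131982085, minus strand) and BHLHE40 (chr3:4979260-4979319, plus strand).
ANKRD37: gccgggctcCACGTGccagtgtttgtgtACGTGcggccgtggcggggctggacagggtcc
BNIP3: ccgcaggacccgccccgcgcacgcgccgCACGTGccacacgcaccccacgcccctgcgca
BHLHE40: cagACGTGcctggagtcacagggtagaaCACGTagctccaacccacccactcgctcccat

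Mesenchymal and EMT genes leaned to BT474-Var4 cells, and epithelial junction genes had smaller differences of both signs. Of 73 mesenchymal genes on the array, 47 were tested. Of these, 29 were higher in BT474-Var4 and 5 in BT474-Var1 cells at an adjusted p under 0.05. Over all genes it was 22.6% and 22.8%. Of the list 17 and 1 were called, beside 2.35% and 4.85% of all genes. The median was 0.68, or 0.33 after normexp correction. Members below background in 1 population entered only through the other, so part of these counts was set by the filter. Of 33 epithelial junction genes, 15 were higher in BT474-Var4 and 5 in BT474-Var1 cells, with 0 calls by limma in either direction and a median of 0.20. CDH1, the E-cadherin, read 6.02 and 6.01 in BT474-Var4 and 5.60 and 5.62 in BT474-Var1 cells, a difference of 0.40 (SE 0.05, adjusted p = 0.00478), and EPCAM differed by 0.65 (SE 0.06).

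TGFBI, a matrix protein named for its induction by TGF-beta, read 3.68 and 3.62 in BT474-Var4, 0.57 and 0.61 in BT474-Var1 and 2.13 and 2.14 on the Control arrays, so the populations lay about as far above as below Control. Its difference was 3.06 (SE 0.05, adjusted p = 3.6e-04). VIM, the intermediate filament vimentin, differed by 1.29 (SE 0.08, adjusted p = 0.00121), at 4.45 and 4.28 against 3.07 and 3.09, beside 4.14 and 4.08 in Control. The matrix protein TNC differed by 1.65 (SE 0.10) and the protease inhibitor SERPINE2 by 1.72 (SE 0.12); for both the BT474-Var4 arrays read near Control and the BT474-Var1 arrays below. Dim members were bounds: CDH11, a cadherin of mesenchymal cells, was higher in BT474-Var4 cells by at least 4.34-fold and the collagenase MMP1 by at least 3.11-fold. Both were tested only through BT474-Var4 cells, so their direction followed from the filter.

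Of 15 secreted signals of this list on the array, 11 were tested. At an adjusted p under 0.05, 8 were higher in BT474-Var4 and 1 in BT474-Var1 cells, beside 22.6% and 22.8% of all genes. The median was 1.00. Those given below as bounds were tested only through the population where they were high, so their direction followed from the filter. The activin subunit INHBA differed by 1.61 (SE 0.07, adjusted p = 8.5e-04) and the chemokine CXCL8 was higher in BT474-Var4 cells by at least 3.36-fold (adjusted p = 0.00122). IL6, the inflammatory cytokine, read -1.30 and -1.35 in BT474-Var4 and -4.59 and -3.53 in BT474-Var1, a difference of 2.73 (SE 0.37, adjusted p = 0.00632) that rests in part on a BT474-Var1 array, A, that was not well above background. TGFB1 was the called member that was higher in BT474-Var1 cells, at least 4.07-fold (adjusted p = 0.0111), but the adjusted p was 0.055 without the BT474-Var1 A array. TGFB2 was not well above background in either population. Among 48 NF-kappaB targets and cytokines tested, 15 were higher in BT474-Var4 and 6 in BT474-Var1 cells, beside 22.6% and 22.8% of all genes. The chemokine CCL5 differed by 1.75 (SE 0.08).

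**Figure D5:**
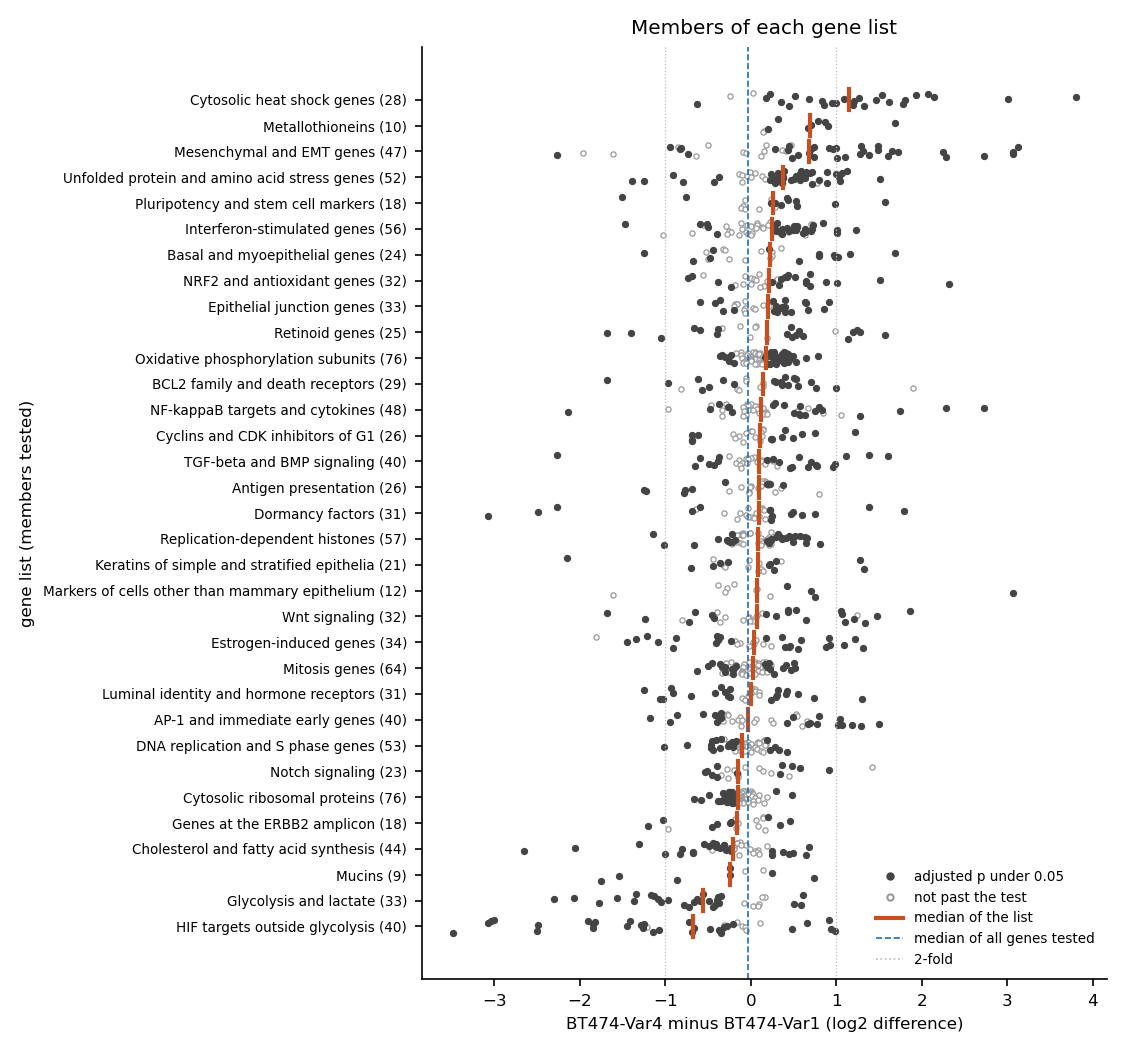
Difference BT474-Var4 minus BT474-Var1 (log2, horizontal axis) of every tested member of the 33 gene lists, 1 probe per gene; filled points passed an adjusted p of 0.05, thick bars are list medians and the dashed line is the median of all genes tested, -0.03. Heat shock genes stand at the top with a median of 1.15 and HIF targets at the bottom with -0.68.

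Luminal and hormone receptor genes were split. Of 31 tested, 9 were higher in BT474-Var4 and 12 in BT474-Var1 cells, beside 22.6% and 22.8% of all genes. The median lay between -0.07 and 0.02 over the alternatives. PGR, the progesterone receptor, read 3.58 and 3.53 in BT474-Var4 and 4.46 and 4.52 in BT474-Var1, both below the 4.77 and 4.77 of Control; the difference was -0.93 (SE 0.05, adjusted p = 0.00108) and -0.83 on its other probe. ESR1, the estrogen receptor, differed by -0.34 (SE 0.07, adjusted p = 0.0194) on its brightest probe, by -0.14 (adjusted p = 0.194) on a second and by -1.25 (adjusted p = 0.0045) on the dimmest. The brightest probe no longer passed the test without BT474-Var4 A, BT474-Var4 B or BT474-Var1 B (adjusted p 0.081, 0.056 and 0.071). ERBB2 differed by -0.24 (SE 0.05, adjusted p = 0.0181), and did not pass without any 1 of the 4 arrays (adjusted p 0.059 to 0.074) or after quantile normalization, where it differed by -0.10 (adjusted p = 0.153). EGFR, the receptor of the same family, was higher in BT474-Var1 cells, with a difference of -1.25 (SE 0.13, adjusted p = 0.00342).

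Several secreted products of luminal cells were lower in BT474-Var4 cells. MUCL1, a small breast mucin, read 7.49 and 7.52 in BT474-Var4 and 9.21 and 9.32 in BT474-Var1, on either side of 8.64 and 8.61 in Control, a difference of -1.76 (SE 0.06, adjusted p = 8.1e-04). The estrogen-induced peptide TFF1 differed by -1.21 (SE 0.05) and mammaglobin, SCGB2A2, by -1.06 (SE 0.05). PIP, the prolactin-induced protein of apocrine cells, read 1.77 and 1.63 against 5.29 and 5.33, with Control at 3.34 and 3.27, a difference of -3.61 (SE 0.07, adjusted p = 4.5e-04). Not all estrogen-induced genes did so: of 34 tested, 13 were higher in BT474-Var4 and 11 in BT474-Var1 cells. Over all genes it was 22.6% and 22.8%. AREG, the growth factor amphiregulin, differed by 1.22 (SE 0.05).

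Cell cycle genes differed little between the populations. Of 64 mitosis genes tested, 10 were higher in BT474-Var4 and 12 in BT474-Var1 cells, beside 22.6% and 22.8% of all genes. There were 0 calls by limma in either direction. The median of 0.03 ran from -0.07 to 0.07 over the alternatives, although BT474-Var4 minus Control and BT474-Var1 minus Control were -0.41 and -0.40. MKI67, the gene of Ki67, had differences of 0.13, -0.15 and -0.19 on its 3 probes (adjusted p 0.269, 0.2 and 0.0809). The last, its brightest probe, did pass after quantile normalization, at -0.26 (adjusted p = 0.0361). It also passed with the percentile over detected probes, at -0.26 (adjusted p = 0.0347), and with a trended, robust variance (adjusted p = 0.0189). Of 53 replication genes, 5 and 16 passed and 1, the DNA ligase LIG1, was called, at -1.01 (SE 0.07), which fell short of 2-fold and was no longer a call without BT474-Var4 B or without BT474-Var1 B (-0.99). CDKN1A (p21), the CDK inhibitor, differed by 0.76 (SE 0.17, adjusted p = 0.0242), but without any 1 of the 4 arrays the adjusted p was 0.062 to 0.102.

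Of 31 dormancy factors, 10 were higher in BT474-Var4 and 5 in BT474-Var1 cells at an adjusted p under 0.05. All genes tested gave 22.6% and 22.8%, and the list's median was 0.10. Of 18 pluripotency and stem cell markers it was 9 and 2, with a median of 0.26, and among the 12 of breast stem and progenitor cells 7 and 0 in limma. The pluripotency factors fixed by name were on the other side. POU5F1 (OCT4) differed by -0.75 (SE 0.13, adjusted p = 0.011) on the probe above background, with an adjusted p of 0.053 without BT474-Var4 A and also without BT474-Var1 A. NANOG was higher in BT474-Var1 by at least 2.18-fold (adjusted p = 0.0194), with an adjusted p of 0.083 without BT474-Var4 B and also without BT474-Var1 A. ALDH1A3, which makes retinoic acid and marks breast stem-like cells, was higher in BT474-Var4 cells by 1.57 (SE 0.07, adjusted p = 8.5e-04). CYP26A1, which degrades retinoic acid, was also higher there by 1.27 (SE 0.13), while of all 25 retinoid genes 11 and 7 passed.

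Interferon-stimulated genes were moderately higher in BT474-Var4 cells. Of 56 tested, 24 were higher in BT474-Var4 and 5 in BT474-Var1 cells, beside 22.6% and 22.8% of all genes. Of these 3 and 1 were called, beside 2.35% and 4.85% of all genes, and the median was 0.25, or 0.10 after normexp correction. BST2 (tetherin) differed by 1.23 (SE 0.11) on 1 probe and by 0.30 on the other. TLR3, the sensor of double-stranded RNA, was higher in BT474-Var1 cells, at -1.29 and -1.21 against -2.56 and -2.88 (adjusted p = 0.00697). Cholesterol synthesis was lower in BT474-Var4 cells. Of 27 genes, 1 was higher there and 14 were higher in BT474-Var1 cells, beside the same 22.6% and 22.8%. The median was -0.29, and MVD, a mevalonate enzyme, differed by -1.31 (SE 0.06). ACACB, the mitochondrial acetyl-CoA carboxylase, had the largest difference of the fatty acid genes, -2.65 (SE 0.14). Ribosomal protein genes had 2 of 76 higher in BT474-Var4 and 29 in BT474-Var1 cells, again beside 22.6% and 22.8%. Their median was -0.15, but quantile normalization turned it to 0.01.

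Outside the lists, the largest differences in favour of BT474-Var4 cells among genes detected in both populations were the chemokine CXCL14 at 3.31 (SE 0.05), NKAIN1 at 2.76 (SE 0.06), GALNT14, which starts O-linked glycans, at 2.70 (SE 0.08), PLAT, the tissue plasminogen activator, at 2.63 (SE 0.15), and protein kinase D1, PRKD1, at 2.48 (SE 0.09). CXCL14 read 6.14 and 6.12 in BT474-Var4, 4.38 and 4.32 in Control and 2.83 and 2.80 in BT474-Var1, so each population moved by more than 2-fold to its own side. The drug exporter ABCC3 had both of its probes called, at 2.32 and 1.47. ADCY7, an adenylate cyclase, and NAV2 were also among these, at 2.39 and 2.36. Probes called and below background in BT474-Var1 cells were those of RFPL2, higher in BT474-Var4 cells by at least 35.8-fold, the potassium channels KCNC1 and KCNMA1, at least 6.94-fold and 6.49-fold, TRIML2, at least 4.88-fold, IGFBP7, at least 4.6-fold, and the prostaglandin receptor PTGER3, at least 4.34-fold. A brighter probe of KCNMA1 was detected in both populations and differed by 1.88 (SE 0.08), and a second probe of KCNC1, detected on 1 BT474-Var1 array, by 3.38. PTGER3 had 4 probes, of which 3 were called and the fourth differed by 0.21.

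MUC19, a gel-forming mucin on chromosome 12, had 6 probes and all were called higher in BT474-Var1 cells. The brightest (A_33_P3244784) averaged 4.98 in BT474-Var1, 2.18 in Control and -0.12 in BT474-Var4 cells, a difference of -5.09 (SE 0.06, adjusted p = 2.9e-04). Another was detected in both populations and differed by -5.36 (SE 0.11), and the other 4 were below background in BT474-Var4 cells, with bounds of at least 2.6-fold to at least 24.2-fold. UGT2B15, which conjugates androgens and has close relatives that its probe may read, differed by -3.53 (SE 0.08). DIO3, the deiodinase that inactivates thyroid hormone, had both probes called: 1 read 3.33 and 3.33 in BT474-Var1 and -0.21 and 0.14 in BT474-Var4, a difference of -3.36 (SE 0.19), and the other was higher in BT474-Var1 by at least 12-fold. PAQR6 at -2.67 (SE 0.21), TEX14 at -2.66 (SE 0.07) and COL7A1, the collagen of anchoring fibrils, at -2.63 (SE 0.13) were of the same direction. The calcium channel gene ORAI3 had 1 probe at -2.52 and another at -0.30 (adjusted p = 0.0772).

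Some of the highest bounds in favour of BT474-Var1 cells fell on probes with a shared stretch of letters, which was noticed after their values were seen. TMCC2 was at least 49.7-fold, LMO7DN at least 45.1-fold, JAKMIP3 at least 36.6-fold, UXT at least 35.0-fold and STARD4-AS1 at least 28.5-fold higher. Of the 8 genes named for their bounds, 3 have a probe with the run TCCATTCCA, namely TMCC2, LMO7DN and UXT, as has MKL2, whose probe differed by -3.96 (SE 0.13) and was detected in both populations. The probe of C16orf97, with a bound of at least 34.3-fold, also holds it. Repeats of the CATTC unit are known from the human satellite DNA beside centromeres. The sequences are shown with that run and the T after it in capitals for TMCC2 (chr1:205242117-205242176, hg19, plus strand), UXT (chrX:47516518-47516577, minus strand) and LINC01197 (chr15:95822542-95822601, minus strand), a long noncoding RNA whose probe was higher in BT474-Var1 by at least 35.2-fold.
TMCC2: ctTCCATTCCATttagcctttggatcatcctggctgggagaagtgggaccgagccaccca
UXT: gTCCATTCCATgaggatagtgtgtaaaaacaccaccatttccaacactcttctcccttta
LINC01197: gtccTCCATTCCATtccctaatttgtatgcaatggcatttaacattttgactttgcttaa

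Of the 33 probes of the array that hold TCCATTCCA, 26 were tested, 14 were called higher in BT474-Var1 cells and 0 higher in BT474-Var4 cells by limma. The run was picked from the probes with the largest differences, and 11 of the 14 were tested only through BT474-Var1, being below background on both BT474-Var4 arrays, so nothing is read from that share. The Control mean lay between the populations for 11 of these 14, beside 13038 of all 30263 tested probes. The run started within the first 25 bases of 12 probes, of which 11 were called. It started later in 14, of which 3 were called. Over all tested probes, 4.8% were called higher in BT474-Var1 cells. This split uses the same picked run and the same dim probes, so nothing is read from it either. The reverse complement TGGAATGGA was held by 22 tested probes, of which 4 were called in favour of BT474-Var1 cells and 1 in favour of BT474-Var4 cells, with a median of -0.13. Other probes of the same genes gave other values: the second probe differed by -0.02 for UXT (adjusted p = 0.761), -0.07 for MKL2 (adjusted p = 0.425), 0.47 for LMO7DN (adjusted p = 0.472) and -0.37 for LINC01197 (adjusted p = 0.0146), the last of which passed the test. The other probes of IL6ST and PNRC1, whose runs started at bases 34 and 40, moved the same way as the probe with the run, by -1.30 to -0.37 and by -0.98. Of the 8 probes named for their bounds, 4 hold the shorter run CATTCCAT and 5 hold TTCCAT. Which RNA these probes and those with the longer run read was not tested. The gene names of TMCC2, LMO7DN, UXT and MKL2 are therefore given as those of the probes. The same holds for JAKMIP3 and STARD4-AS1, which had 1 tested probe each.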

How the data were processed

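Cy3-labeled cRNA from total RNA was read on Agilent one-color arrays. The authors deposited spot intensities from Feature Extraction 11.5.1.1, which subtracts background and marks outlier and dim spots, and a table of log2 values that the authors shifted to each array's 75th percentile in GeneSpring. The array design in the file headers is not that of the methods, and probe positions are on hg19. Levels are log2 processed intensities from which the array's 75th percentile was subtracted, and spots marked as outliers (63 to 128 of 60901 per array) were left out. Spots of a probe were averaged, and probes well above background on both arrays of BT474-Var1 or BT474-Var4 cells were tested. One mean for each of the 3 groups was estimated from all 6 arrays in limma 3.58.1 (R 4.3.3), and p-values were adjusted after Benjamini-Hochberg across the 30263 probes, 38 of which lacked the value of an array. With 3 residual and 1.65 prior degrees of freedom, precision is limited by how few arrays there are. The fit was tested on simulated data. Arrays of a population correlated at 0.994 and 0.995.

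A population below background gave a bound: each of its values below the dimmest signal that counted as well above background on that array was set to that signal. Lists used the brightest tested probe of each gene and were described, not tested. The members, lists and alternatives were chosen with earlier results of these data known. Named by rule were the NR2F1-AS1 and NR2F1 probes, and per direction the 12 largest differences detected in both populations. The rules added the 8 highest bounds among genes with a symbol, up to 6 members of a list by size and a few fixed genes. Further members of some lists, such as heat shock genes and HIF targets, were described outside these rules. The probes sharing the letter run were picked after their values were seen. Alternatives were normexp with an offset of 50, quantile normalization, other percentiles or the median, the deposited table, other filters, the methods' analysis of variance, the replicate letter as a block, only the 4 arrays, and each array left out. The letters A and B did not pair samples (correlation of deviations 0.01). Figures used Python 3.11.15 and matplotlib 3.10.9.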

Additional observations from a re-analysis of the deposited data

How the results depend on the processing

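The 2150 called probes became 365 after normexp correction, whose offset pulls dim probes together, and 1221 with only probes well above background on all 4 arrays; 347 and 1214 of these were among the 2150. The other alternatives gave 1605 (the methods' analysis of variance after adjustment, 2021 at its unadjusted p) to 2346, with 1841 after quantile normalization, and leaving out 1 array gave 1916 to 2162. The fit with the replicate block gave 2099 and moved no count by over 1.5 times. All 4 NR2F1-AS1 probes kept direction and call under every alternative run. Of 224 probes named by the rules, 0 changed direction and 129 kept their side of the threshold under every alternative. Another 93 lost it under at least 1, most often normexp (60) or no filter on dim probes (43). Further list members described in the text were outside this count and the gene names that follow. Of the genes named above, normexp ended the call by size for NR2F1, PLAT, ADCY7, KCNC1, KCNMA1, DCN, TRIML2, IGFBP7, PTGER3, HLA-DRB5, EGFR, CAV1, LIG1, TGFB1, PPFIA4, CA9, TLR3, BST2, SCGB2A2, CDH11, IL6, CXCL8, CCL5, SLC7A11, NANOG, CYP26A1, INHBA and the dimmest ESR1 probe, each with the direction kept. Without a filter the adjusted p passed 0.05 for CDKN1A, TGFB1, CA9, NANOG, POU5F1, ESR1, ERBB2 and CDH1 (0.0505 to 0.153), and CDKN1A also lost its pass with the replicate block (0.0513). The median turned sign for Notch genes (0.028 after quantile normalization, -0.15 as reported), ribosomal proteins (0.0092, quantile), histones (-0.019, quantile), Wnt genes (-0.0028 after quantile normalization and -0.0031 with the percentile over detected probes), markers of other cells (-0.00099 after normexp and -0.0027 with that percentile) and keratins (-0.027 to 0.082 over the arrays left out). Medians near 0 also crossed it for luminal genes (-0.07 to 0.02), mitosis genes (-0.07 to 0.07), estrogen-induced genes (-0.06 to 0.06) and AP-1 genes (-0.11 to 0.02). Heat shock genes stayed at 1.02 to 1.16, glycolysis at -0.65 to -0.39 and HIF targets at -0.76 to -0.34. The cause was not tested where none is named. Between 47.6% and 57.5% of probes per array were well above background, and elsewhere only bounds can be had.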

Other observations

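Median differences per chromosome were small. They ran from -0.14 (chromosome 19) to 0.11 (chromosome 18), and 487 of 543 windows of 5 megabases with at least 10 genes tested had a median within 0.2 of 0. On chromosome 19 the small steps were mostly of 1 sign: 32.7% of 1416 genes were higher in BT474-Var4 cells, beside 57.7% of 345 on chromosome 18. The median of chromosome 19 was -0.14 after quantile normalization and -0.12 over genes well above background on all 4 arrays. The window with the highest median, 0.56 over 13 genes, lay on chromosome 7 (115000001 to 120000000, hg19), where CTTNBP2, CAV1, the gene of caveolin, and MET, the receptor of hepatocyte growth factor, differed by 1.80, 1.16 and 0.90 (CAV1 by 0.94 without BT474-Var1 B, and then not called). Its median was -0.39 for BT474-Var1 minus Control and 0.15 for BT474-Var4 minus Control. The lowest medians were -0.62 over 11 genes on chromosome 2 (90000001 to 95000000), with 3 called higher in BT474-Var1 cells, and -0.59 over 17 genes on chromosome X (75000001 to 80000000), with 4. Over genes well above background on all 4 arrays these medians were -0.18 and -0.29. On chromosome 15 (20000001 to 25000000), 9 of 54 genes were called higher in BT474-Var1 cells, beside 4.85% of all genes, with a median of -0.35.

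Of 12 class II antigen presentation genes, which luminal cells use little, 9 were tested. Past the test in favour of BT474-Var1 cells were 4 of the 9. The list's median was -0.25, or -0.05 after quantile normalization. In limma 0 passed in favour of BT474-Var4 cells, and over all genes 22.8% and 22.6% passed in these directions. HLA-DRB5 differed by -1.24 (SE 0.09) and HLA-DQB1 by -1.23 (SE 0.06), with related alleles that the probes may share. Among the Wnt genes WNT6 was higher in BT474-Var4 cells by 1.86 (SE 0.06) and WNT11 in BT474-Var1 cells, by -1.69 (SE 0.10). OXTR, the oxytocin receptor, differed by 1.68 (SE 0.07), and BAX, which opens the mitochondrial membrane in apoptosis, by -1.68 (SE 0.19).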
